A study of Mus musculus with 12 samples.

Results

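The 10 genes described here encode parts of the NF-kB pathway and some of its targets. They are the DNA-binding subunits Nfkb1, Nfkb2, Rela and Relb, the inhibitors and modulators Nfkbia, Nfkbiz and Tnfaip3, and the target genes Il1b, Il18 and Icam1. They were chosen by symbol from the 54532 gene IDs of the deposited expression table, each matched 1 ID, and all 10 were among the 10806 genes tested. RNA sequencing measured them in 12 liver libraries of wild-type C57BL/6J mice, 3 in each of 4 groups. CD is a diet that the labels do not spell out, HFD a high-fat diet, CD_DSS the CD diet with 2% dextran sulfate sodium (DSS), and HFD_DSS the high-fat diet with 2% DSS. DSS damages the lining of the colon and serves as a chemical model of colitis. The labels give neither age nor sex of the mice, nor how long diet and DSS lasted. Nor do they state that the 3 libraries per group are 3 different mice, and p-values may therefore reflect technical spread alone.

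NF-kB is a family of dimeric transcription factors that inhibitor proteins of the IkB family hold inactive in the cytoplasm. Signals from receptors for TNF, interleukin-1 or microbial products activate the IKK kinase complex, which marks the inhibitors for degradation, and the freed dimers bind kappa-B sites in DNA. Several pathway genes are themselves targets, so that activity feeds back on the levels of its subunits and inhibitors. In the liver the pathway acts in hepatocytes, where it takes part in the acute phase response, and in resident macrophages and endothelium. The values are transcript levels, which do not measure the activity of the proteins.

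The DNA letters that the pathway reads are shown for the members with a match near their start. In the RefSeq promoter table (GRCm38.p6, the assembly also named mm10), 7 members had a total of 10 windows. The 250 bases before each start were searched on both strands for a kappa-B consensus and for the spelled motif GGANNTTCC, and these motifs can overlap. The consensus was held by 3.90% of the 32851 windows in the table and GGANNTTCC by 3.59%, or by at least 1 window of 4.46% and 4.12% of the 27025 genes. Of the 7 members, 3 held the consensus and 4 held GGANNTTCC, and Nfkb2, Nfkbia, Tnfaip3 and Icam1 held at least one of them. Matches are in capitals and each sequence reads 5′ to 3′ on the strand of the gene. The stretches before Nfkbia (chr12:55492648-55492865, minus strand) and Icam1 (chr9:21015747-21015835, plus strand) are shown because they hold the same run of letters, GGAAATTCC:
Nfkbia: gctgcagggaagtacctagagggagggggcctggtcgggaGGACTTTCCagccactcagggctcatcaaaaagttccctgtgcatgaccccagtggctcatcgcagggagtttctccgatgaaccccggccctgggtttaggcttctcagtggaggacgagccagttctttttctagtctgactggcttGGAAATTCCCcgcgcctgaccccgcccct
Icam1: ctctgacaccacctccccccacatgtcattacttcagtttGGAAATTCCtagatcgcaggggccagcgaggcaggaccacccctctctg
In Nfkbia the 2 matches began 178 and 29 bases before the start, and in Icam1 the match began 153 bases before it.

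For Nfkb2 and Tnfaip3 only the short sites are given, to show where matches lie close together just before a RefSeq start. Both sets of sites lie inside the gene spans given below, which begin further upstream. The searched stretches around them hold annotated exon bases of the same gene. The Nfkb2 sites are at chr19:46304695-46304711 and chr19:46304723-46304736 on the plus strand, and the Tnfaip3 pair is at chr10:19015411-19015437 on the minus strand:
Nfkb2 first site: cacGGGAATTCCCCccc
Nfkb2 second site: aaaGGGGCTTTCCc
Tnfaip3 pair: actGGAATTTCCatcGGAAATCCCCct
The windows of Rela, Il1b and Il18 held neither motif, which says only that these letters are not in those windows. A match is a run of letters and not a measurement of binding.

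Depth was 23.4 to 29.4 M fragments per library. Levels are FPKM, fragments normalised to exon length and to library depth, so that they can be compared between genes per length. On the first principal component of all tested genes, the libraries HFD 1, CD_DSS 1 and HFD_DSS 2 lay between the others, at -2.90, -4.76 and 7.64, against -21.7 to -19.2 in the other untreated libraries and 21.7 to 30.9 in the other DSS libraries. Saa1, the gene of a serum amyloid A protein of the acute phase, stood at 579 FPKM in HFD 1, 9.14 in CD_DSS 1 and 191 in HFD_DSS 2, against 15.0 to 49.2 in the other untreated libraries and 483 to 2670 in the other DSS libraries. These 3 libraries go against the pattern of their groups, and results that rest on them are given with and without them. The liver label was met by Alb, the albumin gene, at 16130 to 37500 FPKM.

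Per length, Nfkbia and Rela were the most abundant members and Relb and Tnfaip3 among the least. In CD livers, mean levels were 21.6 ± 3.37 FPKM for Nfkbia and 17.7 ± 1.86 for Rela (SD, n = 3 here and below), which overlapped. Il18 followed at 5.59 ± 0.23, then Nfkb2 at 2.97 ± 0.42, Nfkb1 at 2.88 ± 0.17 and Icam1 at 1.95 ± 0.12. Nfkb2 and Nfkb1 overlapped, and Icam1 lay below both. Il1b, Nfkbiz, Relb and Tnfaip3 were under 1 FPKM on average, at 0.94, 0.81, 0.53 and 0.43, and neighbours in that order overlapped. With HFD and DSS together, Icam1 (6.65 ± 2.42) and Nfkbiz (5.93 ± 2.17) stood above Il18 (4.82 ± 0.40) on average, with overlapping libraries. Fragments behind a value ranged from 24 in the lowest library of Il1b and 37 in that of Relb to 2066 in the highest of Rela. Counting error alone was therefore 20.4% of the lowest Il1b value and 2.20% of the highest Rela value.

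**Figure D1:**
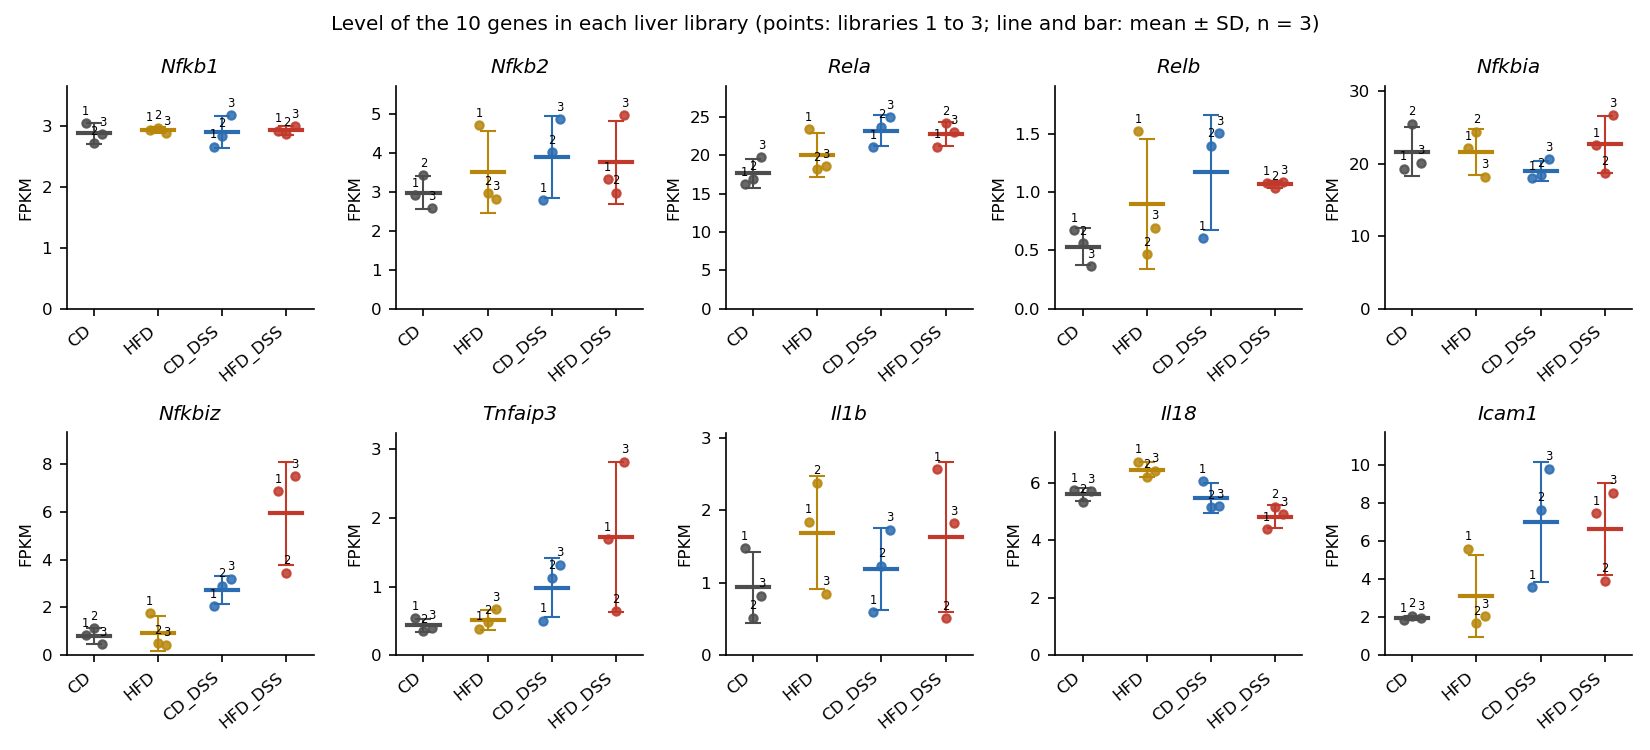
FPKM (y axis, linear from 0) of the 10 genes in the 4 groups (x axis). Points are libraries with their number, and lines and bars are the mean ± SD (n = 3). Nfkbiz lies between 2.06 and 7.48 with DSS and between 0.45 and 1.76 without it, while Nfkb1 stays between 2.66 and 3.18 throughout.

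What DSS did to the 10 genes is clearest when its effect is averaged over both diets. Nfkbiz, Icam1, Tnfaip3 and Rela rose and Il18 fell, by limma's test on log2(FPKM + 1) with Benjamini-Hochberg adjustment over all tested genes at 0.05. These are 5 of 10 members, where 20% of all tested genes passed. The members were chosen with earlier results of these data known, so their count is not independent of the data. Tnfaip3 reached the minimum level for testing only in DSS libraries and so had to be high there to be tested. Nfkbiz reached that level without DSS only in CD 2 and HFD 1, so it too needed DSS libraries to be tested. With no filter on low values, 2 of the 10 passed, Icam1 and Nfkbiz, against 5.84% of 25911 genes. In 1 direction, 4 members were higher, against 8.72% of all tested genes, and 1 was lower, against 11.2%. The median log2 change was 0.23 over the members and -0.01 over all tested genes. Nfkb1, Nfkb2, Relb, Nfkbia and Il1b did not pass. The average uses the same libraries as the comparisons within each diet, so it is not further evidence for them. On the CD diet alone no member passed (0 of 10, against 4.80% of all tested genes). There 4 members had an unadjusted limma p under 0.05, as did 2555 of all 10806 tested genes. On the high-fat diet 2 passed, Nfkbiz higher and Il18 lower, against 4.83% of all tested genes (1.73% higher and 3.1% lower). Voom, a count model run on fragments recovered from the FPKM, gave 0 on the CD diet, 1 on the high-fat diet (Nfkbiz) and 3 in the average (Icam1, Nfkbiz and Rela). Its shares of all tested genes were 5.11%, 5.07% and 20.3%. Single libraries moved these counts. The 5 in the average became 2 without CD 1, CD 2, HFD 2, HFD 3, CD_DSS 2, CD_DSS 3 or HFD_DSS 3 and 3 without CD 3 or HFD_DSS 1. In these fits 12.1 to 16.6% of all tested genes passed. The 0 on the CD diet became 4 without CD_DSS 1, against 11.8% of all tested genes. The 2 on the high-fat diet became 0 without HFD 2, HFD_DSS 1 or HFD_DSS 3 (against 0.0833%, 0.324% and 0.342%) and 1 without HFD 3 (1.08%).

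**Figure D2:**
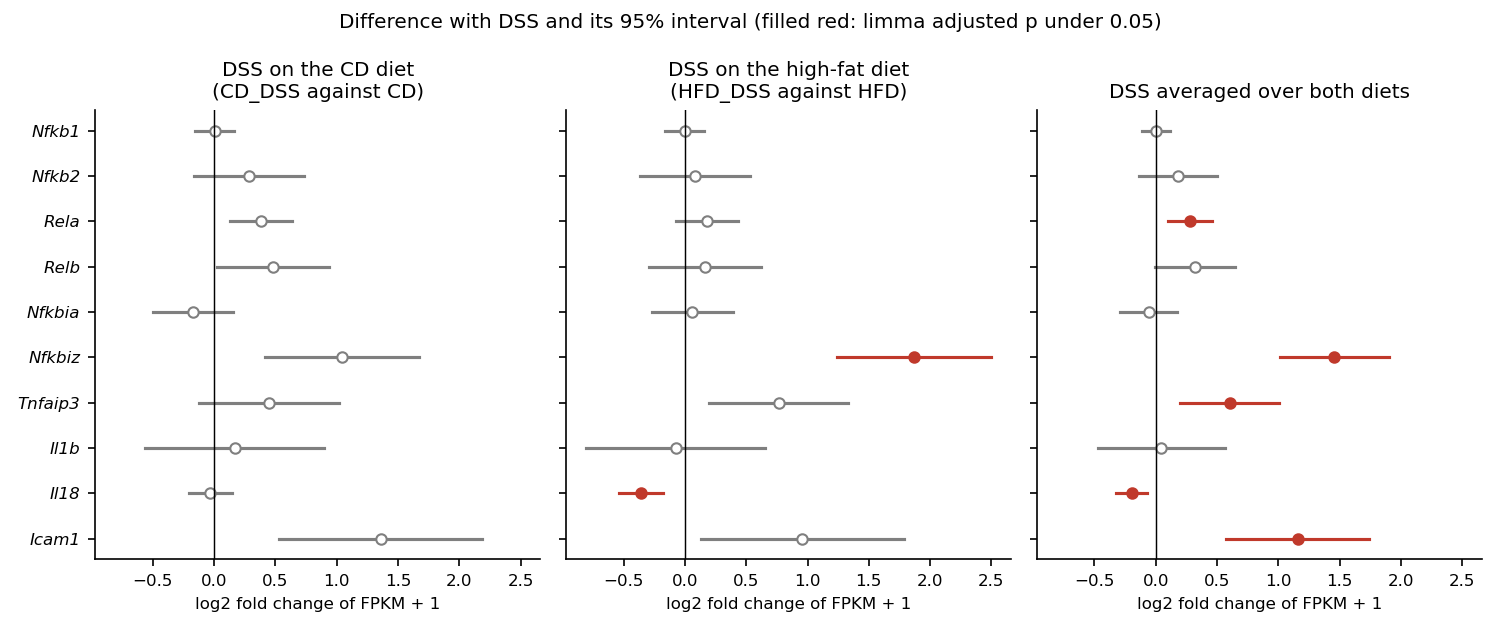
Log2 fold change of FPKM + 1 with DSS (x axis) for each gene (y axis) on the CD diet, on the high-fat diet and averaged over both. Points are estimates, lines 95% intervals, and filled red marks an adjusted p under 0.05. Nfkbiz is the gene farthest to the right on the high-fat diet, at 1.87, and the interval of Nfkb1 in the average runs from -0.11 to 0.11.

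Rela encodes p65, the subunit that carries the main transactivation domain of the classical dimer (chr19:5637483-5648130 in mm10, as for the positions below). It stood at 16.3, 17.0 and 19.8 FPKM in CD 1 to 3 and at 23.4, 18.2 and 18.6 in HFD 1 to 3. With DSS it stood at 21.0, 23.7 and 24.98 in CD_DSS 1 to 3 and at 21.1, 24.2 and 23.0 in HFD_DSS 1 to 3. All CD_DSS libraries were above all CD libraries, as they also were for Nfkbiz and Icam1, where 27% of all tested genes had groups that did not overlap. On the high-fat diet HFD 1 reached into the range of HFD_DSS. Averaged over both diets Rela rose by 0.28 on the log2 scale (SE 0.08, limma adjusted p = 0.0342), 1.22 times the mean FPKM without DSS. The within-diet changes were 0.38 (SE 0.12, limma adjusted p = 0.0847) on CD and 0.18 (SE 0.12, limma adjusted p = 0.370) on the high-fat diet. The averaged call held in 4 of 12 fits without 1 library, those without CD 3, HFD 1, CD_DSS 1 or HFD_DSS 1, with adjusted p up to 0.0847 in the others.

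Nfkb1, on chr3:135584655-135691547, encodes p105, which is processed to p50, the usual partner of p65. Its lowest library had 2.66 FPKM, the median of the 12 was 2.90 and the highest had 3.18. The groups overlapped in every comparison. The averaged DSS change was 0.00 (95% interval -0.11 to 0.11), so that changes of more than 0.11 in either direction lie outside the interval. Of the 10 genes it varied least over the 12 libraries, with a coefficient of variation of 4.80%, against 12.2% in Il18, the next lowest, and 92.2% in Nfkbiz, the highest.

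Nfkb2 and Relb encode the subunits of the non-canonical branch, p100, which is processed to p52, and RelB. Nfkb2 (chr19:46304320-46312385) stood at 2.90, 3.42 and 2.58 FPKM in CD 1 to 3, at 4.71, 2.96 and 2.82 in HFD 1 to 3, at 2.78, 4.01 and 4.86 in CD_DSS 1 to 3, and at 3.32, 2.98 and 4.96 in HFD_DSS 1 to 3. HFD 1 was the high library of the untreated groups, and CD_DSS 1 and HFD_DSS 2 were the low ones of the DSS groups. Its averaged DSS change was 0.18 (SE 0.14, limma adjusted p = 0.401). Of its exon bases, 18.1% overlap genes on the other strand, and the labels do not say whether fragments were counted by strand, so those of both genes cannot be told apart there.

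Relb (chr7:19606217-19629438) stood at 0.67, 0.56 and 0.36 FPKM in CD 1 to 3 and at 1.53, 0.47 and 0.70 in HFD 1 to 3. With DSS it was at 0.60, 1.40 and 1.51 in CD_DSS 1 to 3 and at 1.08, 1.04 and 1.09 in HFD_DSS 1 to 3. It reached 1 FPKM in 6 libraries, 5 of them with DSS and the other HFD 1, so it entered the test through the libraries where it was high. The averaged change was 0.32 (SE 0.15, limma adjusted p = 0.145). Scales that compress low levels less gave larger values that did not pass either, 0.66 with a pseudocount of 0.1 (limma adjusted p = 0.130) and 0.72 with voom (SE 0.32, adjusted p = 0.130). Without HFD 1 it was 0.43 (limma adjusted p = 0.0327) and without CD_DSS 1 it was 0.42 (limma adjusted p = 0.0395), so that leaving out either of these libraries brought it past the threshold.

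Among the inhibitors, Nfkbiz gave the largest change of the 10 genes with DSS on the high-fat diet and in the average. It encodes IkB-zeta, an inducible nuclear member of the IkB family that is needed for a set of secondary NF-kB targets such as Lcn2 and Il6 (chr16:55811375-55838899). It stood at 0.84, 1.12 and 0.46 FPKM in CD 1 to 3 and at 1.76, 0.53 and 0.45 in HFD 1 to 3. In CD_DSS 1 to 3 it stood at 2.06, 2.91 and 3.20, and in HFD_DSS 1 to 3 at 6.86, 3.46 and 7.48. It reached 1 FPKM in 8 libraries, of which only CD 2 and HFD 1 were untreated. It therefore entered the test through DSS libraries, where it was high, and it passed in the average with no filter as well. All 6 DSS libraries were above all 6 untreated ones, which held for no other member, and 6.59% of all tested genes had groups that did not overlap in this comparison. The order of the group means was CD (0.81), HFD (0.91), CD_DSS (2.72) and HFD_DSS (5.93), and CD and HFD did not differ beyond their spread.

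On the high-fat diet Nfkbiz rose by 1.87 (SE 0.29, limma adjusted p = 0.0114), with 6.52 times the mean FPKM of HFD. On the CD diet it changed by 1.05 (SE 0.29, limma adjusted p = 0.0606), with 3.37 times the mean FPKM of CD. In the average it rose by 1.46 (SE 0.20, limma adjusted p = 0.00175), a call that held in all 12 fits without 1 library and in all 8 other settings run. Those 8 include the fit without HFD 1, CD_DSS 1 and HFD_DSS 2, which is no independent support. These changes are of log2(FPKM + 1), which understates them for a gene under 1 FPKM. Voom, which adds a smaller constant to the fragments, gave 2.34 (SE 0.35) for the average. The high-fat call held in 3 of 6 fits without 1 library, those without HFD 1, HFD 3 or HFD_DSS 2, with adjusted p up to 0.0654 in the others.

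Between the DSS groups, Nfkbiz was at 2.18 times the mean of CD_DSS in HFD_DSS. All 3 HFD_DSS libraries were above all 3 CD_DSS libraries, as in either direction for 16.5% of all tested genes. The log2 difference of 0.85 (SE 0.29) did not pass (limma adjusted p = 0.302). No member passed in that comparison, against 0.102% of all tested genes, and voom gave 0. Nfkbiz was the 1 member at an unadjusted limma p under 0.05, where 1171 of all 10806 tested genes had such a p. The difference between both DSS effects was 0.82, with a 95% interval from -0.06 to 1.71 (limma adjusted p = 1.00), so a larger effect on the high-fat diet was not shown.

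Tnfaip3 encodes A20, a ubiquitin-editing enzyme that shuts down signalling to IKK (chr10:19000910-19015657). It stood at 0.54, 0.35 and 0.40 FPKM in CD 1 to 3, and at 0.39, 0.49 and 0.67 in HFD 1 to 3. With DSS it was at 0.50, 1.13 and 1.32 in CD_DSS 1 to 3 and at 1.69, 0.64 and 2.82 in HFD_DSS 1 to 3. CD_DSS 1 and HFD_DSS 2 stayed within the untreated range, and the other DSS libraries lay above it. It reached 1 FPKM in 4 libraries, all with DSS, so it entered the test only through the group where it was high. In the average it rose by 0.60 (SE 0.18, limma adjusted p = 0.0396), with 2.85 times the mean FPKM. The call held in 2 of 12 fits without 1 library, those without CD_DSS 1 (0.70, limma adjusted p = 0.0196) or HFD_DSS 2 (0.77, limma adjusted p = 0.00455), and the highest adjusted p among the others was 0.0940. With no filter the change was the same and did not pass (limma adjusted p = 0.104). Voom, which does not compress low levels as log2(FPKM + 1) does, gave 1.26 (SE 0.42, adjusted p = 0.0541).

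Nfkbia encodes IkB-alpha, the inhibitor that is degraded first and made again as a direct target (chr12:55489410-55492647). It stood at 19.3, 25.5 and 20.1 FPKM in CD 1 to 3, at 22.1, 24.4 and 18.2 in HFD 1 to 3, at 18.0, 18.4 and 20.6 in CD_DSS 1 to 3, and at 22.5, 18.7 and 26.7 in HFD_DSS 1 to 3. The groups overlapped in all these comparisons. The averaged DSS change was -0.06 (95% interval -0.29 to 0.18, limma adjusted p = 0.755). Its promoter stretch is the first of those printed above.

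Among the targets, Icam1 encodes the adhesion molecule that leukocytes bind through the integrin LFA-1 (chr9:21015985-21028817). It stood at 1.84, 2.08 and 1.94 FPKM in CD 1 to 3 and at 5.61, 1.68 and 2.06 in HFD 1 to 3. In CD_DSS 1 to 3 it stood at 3.60, 7.67 and 9.83, and in HFD_DSS 1 to 3 at 7.47, 3.93 and 8.55. HFD 1 was the 1 untreated library inside the DSS range. CD_DSS 1 and HFD_DSS 2 were the lowest of their groups, and still above the other 5 untreated libraries. In the average Icam1 rose by 1.16 (SE 0.27, limma adjusted p = 0.0130), with 2.70 times the mean FPKM, and this call held in all 12 fits without 1 library and in all 8 other settings. The fit without HFD 1, CD_DSS 1 and HFD_DSS 2 is among those 8 and is no independent support. Within the diets the changes were 1.36 (SE 0.38, limma adjusted p = 0.0649) on CD and 0.96 (SE 0.38, limma adjusted p = 0.154) on the high-fat diet. Without CD_DSS 1 the CD value was 1.72 (limma adjusted p = 0.0162), and without HFD 1 the high-fat value was 1.36 (limma adjusted p = 0.0438). Of its exon bases, 11.7% overlap Gm47079 on the other strand.

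Il18 encodes interleukin-18, a cytokine stored as a precursor and released after cleavage by caspase-1 (chr9:50554827-50581840), and it was the 1 member that fell. It stood at 5.74, 5.33 and 5.71 FPKM in CD 1 to 3, at 6.73, 6.20 and 6.42 in HFD 1 to 3, at 6.05, 5.16 and 5.19 in CD_DSS 1 to 3, and at 4.38, 5.16 and 4.91 in HFD_DSS 1 to 3. All HFD_DSS libraries were below all HFD libraries, and 27.1% of all tested genes had groups that did not overlap in this comparison. On the high-fat diet it fell by 0.36 on the log2 scale (SE 0.08, limma adjusted p = 0.0337), to 0.747 times the mean FPKM of HFD. On the CD diet the change was -0.03 (SE 0.08, limma adjusted p = 0.864). In the average it fell by 0.19 (SE 0.06, limma adjusted p = 0.0345). The difference between both DSS effects was -0.33 (95% interval -0.58 to -0.08), with an unadjusted p of 0.0148 by limma that did not pass adjustment (1.00). The high-fat call held in 1 of 6 fits without 1 library, the one without HFD_DSS 2, and the averaged call in 2 of 12, those without CD_DSS 1 or HFD_DSS 2. With FPKM scaled to TPM the change was -0.33 on the high-fat diet (limma adjusted p = 0.133) and -0.17 in the average (limma adjusted p = 0.176), and voom gave -0.22 in the average (adjusted p = 0.123).

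Il1b encodes interleukin-1 beta, a cytokine mostly made by myeloid cells (chr2:129364570-129371139). It stood at 1.48, 0.52 and 0.82 FPKM in CD 1 to 3, at 1.84, 2.38 and 0.85 in HFD 1 to 3, at 0.60, 1.23 and 1.73 in CD_DSS 1 to 3, and at 2.56, 0.51 and 1.82 in HFD_DSS 1 to 3. High and low libraries occurred in all 4 groups. The averaged DSS change was 0.05, with a wide 95% interval from -0.47 to 0.56 that spans changes of either sign. A value rests on 24 to 110 fragments, with a counting error of 9.53 to 20.4%, beside a coefficient of variation of 52.6% over the 12 libraries.

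An exact permutation test of the DSS labels within each diet, over all 400 assignments and two-sided, was run on each of the 10 genes as a value that needs no model. It gave p = 0.005 for Nfkbiz, the smallest this exact test can give, and p = 0.01 for Icam1. Exact p-values for Rela and Tnfaip3 were 0.02 each, and for Il18 0.04. For the members that did not pass with limma, exact p-values were 0.095 (Relb), 0.255 (Nfkb2), 0.645 (Nfkbia), 0.88 (Il1b) and 0.945 (Nfkb1). These p-values are not adjusted for the 10 genes, which were chosen with earlier results of these data known.

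The diet alone moved none of the members past the threshold. In HFD against CD, 0 of 10 passed by limma, none had an unadjusted p under 0.05, and voom also gave 0, against 0.00925% of all tested genes. Il18 was higher in all 3 HFD libraries than in all 3 CD libraries (0.18, SE 0.08, limma adjusted p = 0.743), where 13.1% of all tested genes had groups that did not overlap. Averaged over both DSS states, 0 of 10 passed as well (against 0.342%), with 0 at an unadjusted p under 0.05 and 0 by voom. For the difference between both DSS effects 0 of 10 passed (against 0.00925%), with 1 at an unadjusted p under 0.05, Il18, and 0 by voom. Of all 10806 tested genes, 726 had an unadjusted limma p under 0.05 in HFD against CD. Averaged over both DSS states 1364 did, and for the difference between both DSS effects 533 did.

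Within groups, the highest or lowest value of many members fell in the same library. In HFD, library 1 was the highest of its group in 6 of 10 members: Nfkb2, Rela, Relb, Nfkbiz, Il18 and Icam1, where it was the highest in 38.6% of all tested genes. In CD_DSS, library 1 was the lowest in 9 of 10, all but Il18, where over all tested genes it was the lowest in 37.3%, and library 3 was the highest in the same 9, against 33.1%. In HFD_DSS, library 2 was the lowest in 8 of 10, all but Rela and Il18, against 38.0% of all tested genes, and library 3 was the highest in 7, against 30.1%. Without HFD 1, CD_DSS 1 and HFD_DSS 2, 7 members passed in the DSS average, against 31.2% of all tested genes: Icam1, Nfkbiz, Rela, Relb, Tnfaip3 and Nfkb2 higher, and Il18 lower. On the CD diet 5 then passed, against 17.8% (Icam1, Nfkbiz, Rela, Relb and Tnfaip3), and on the high-fat diet 4, against 18.8% (Icam1, Nfkbiz and Tnfaip3 higher and Il18 lower). Nfkbiz was then higher in HFD_DSS than in CD_DSS (1.01, limma adjusted p = 0.0425), where 0.731% of all tested genes passed. The 3 libraries were picked on a component that also separates DSS from untreated libraries, so leaving them out narrows the spread within groups along the outcome, and these counts are no independent support.

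**Figure D3:**
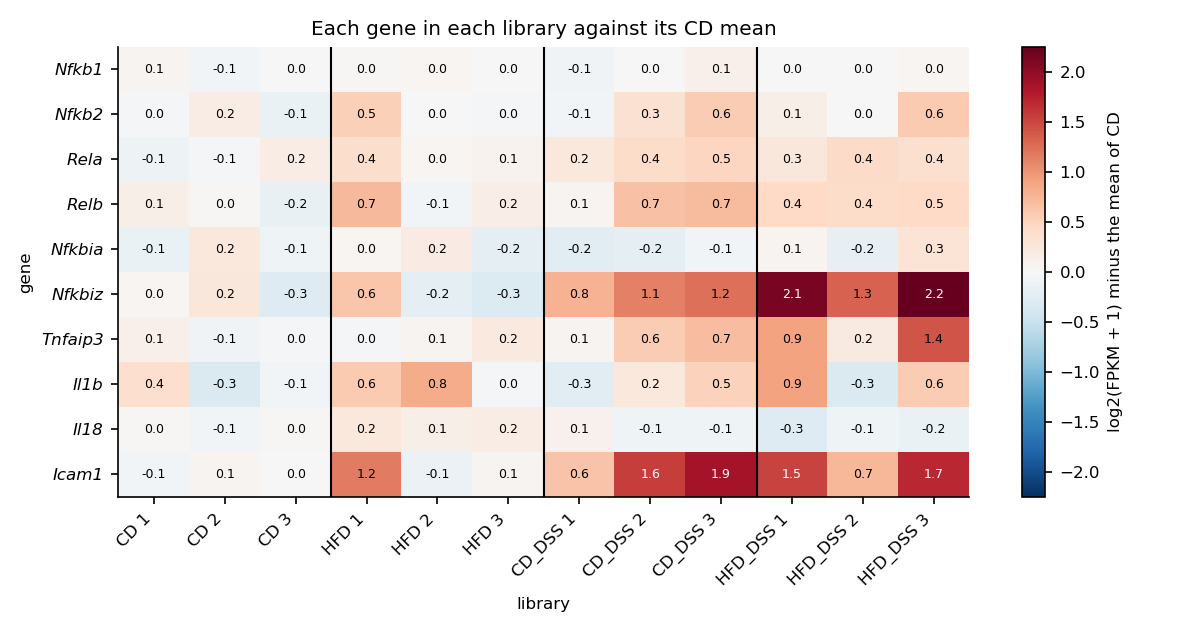
Log2(FPKM + 1) of each gene (rows) in each library (columns) minus the gene's mean in CD, as colour and number, with lines between the groups. Icam1 stands at 1.16 in HFD 1, inside the range of the DSS libraries, and at 0.64 and 0.74 in CD_DSS 1 and HFD_DSS 2. The row of Nfkb1 runs from -0.08 to 0.11.

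Several members varied together within groups. Over the 12 libraries, deviations of log2(FPKM + 1) from the group means correlated with Icam1 at r = 0.90 for Nfkb2, 0.89 for Nfkbiz and 0.85 for Relb, and at 0.59 for Rela. Among the others, r was 0.86 for Nfkb2 with Nfkbiz, 0.78 for Nfkb2 with Relb, 0.71 for Nfkbiz with Relb and 0.64 for Nfkb2 with Nfkbia. All points share their library, the 3 libraries above included, and the values are a description without a test. Likeness to other genes was taken as Pearson's r of log2(FPKM + 1) over the 12 libraries, among 4928 genes with a mean of at least 5 FPKM. Members and genes with clone or prediction names were left out. The closest of so many genes have high r by selection, and no test was made. The 3 genes most like Icam1 were Eif6, Ptpn1 and Lbp (r = 0.98 each), of which Lbp encodes the lipopolysaccharide-binding protein of the acute phase. Nfkbiz was most like Cxcl1 (0.97), which encodes a neutrophil chemokine, and Ang and Rnase4 (0.97 and 0.96), a pair of ribonuclease genes. Tnfaip3 was most like Cp (0.91), which encodes ceruloplasmin, and Fam234b (0.90). Relb was most like Clec4f (0.91), a marker of Kupffer cells, and Rela was most like Slc35c1 (0.94). Il18 was most like Mrpl9 and Mrpl49 (0.92 each), which encode proteins of the mitochondrial ribosome. For Nfkb1, Nfkb2, Nfkbia and Il1b the closest genes had r of 0.86 or less.

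Genes of the rest of the pathway were taken from lists that were chosen with earlier results of these data known. Counts are of tested genes that passed in the DSS average, to be read against the 8.72% of all tested genes that were higher and the 11.2% that were lower. Without 1 library, the share that passed in either direction ran from 12.1% (without HFD 2) to 24.7% (without CD_DSS 1) in the average. On the CD diet it ran from 0.583% (without CD_DSS 3) to 11.8% (without CD_DSS 1). On the high-fat diet it ran from 0.0833% (without HFD 2) to 8.13% (without HFD_DSS 2). Counts without 1 library, here and in the lists below, are to be read against these shares. Among 8 tested receptors upstream of NF-kB, 4 rose and 1 fell, with a median change of 0.65. Il1r1, the interleukin-1 receptor, rose by 1.49 in the average (SE 0.31, limma adjusted p = 0.00869). Its levels were 8.51 ± 2.34 FPKM in CD, 10.1 ± 6.71 in HFD, 22.3 ± 7.74 in CD_DSS and 33.9 ± 15.8 in HFD_DSS, and the steps within the diets did not pass (limma adjusted p = 0.118 on CD and 0.0501 on the high-fat diet). Tnfrsf12a, the receptor for the cytokine TWEAK, rose by 0.95 (SE 0.12, limma adjusted p = 0.00104) and was the 1 gene of this list that passed on each diet. Tnfrsf1a, the main TNF receptor, rose by 0.81 and Ltbr, the lymphotoxin beta receptor, by 0.45, while Tnfrsf1b, the other TNF receptor, fell by 0.34. Without CD_DSS 1 all 8 passed in the average, counted in either direction, against 24.7% of all tested genes. In the fit with all libraries, 6 of the 8 changes were positive. The 1 on the CD diet became 4 without CD_DSS 1 and 0 without CD_DSS 3, and the 1 on the high-fat diet became 2 without HFD 1, 3 without HFD_DSS 2 and 0 without any 1 of the other libraries of those groups.

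Of 27 tested genes for the IKK complex, adaptors and upstream kinases, 7 rose and 0 fell. Myd88, the adaptor of Toll-like and interleukin-1 receptors, rose by 0.64 in the average (SE 0.12, limma adjusted p = 0.00515). Its levels were 5.62 ± 0.30 FPKM in CD, 6.63 ± 1.31 in HFD, 9.64 ± 1.66 in CD_DSS and 10.6 ± 2.16 in HFD_DSS. Map3k14, the kinase NIK of the non-canonical branch, rose by 0.65, Map3k8 by 0.57, Ripk1 by 0.40 and Irak4 by 0.32. Map3k14 and Map3k8 reached 1 FPKM in 0 untreated libraries, and in 5 and 6 DSS libraries, so they had to be high with DSS to be tested. Within the diets 4 passed on CD (Map3k14, Map3k8, Myd88 and Traf2, against 2.01% of all tested genes higher) and Map3k8 on the high-fat diet (against 1.73%). The 4 on CD became 7 without CD_DSS 1, 1 without CD 1 or CD 3, and 0 without CD 2, CD_DSS 2 or CD_DSS 3. The 1 on the high-fat diet became 5 without HFD_DSS 2, 2 without HFD 1 and 0 without any 1 of the other 4. The median change of the list was 0.08, and the count in the average became 4 without CD_DSS 2 or CD_DSS 3.

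Of 7 tested other Rel and IkB family genes, 2 rose. Bcl3, which encodes a nuclear IkB protein that partners p50 and p52, rose by 1.28 in the average (SE 0.29, limma adjusted p = 0.0126). Its levels were 9.28 ± 0.67 FPKM in CD, 18.5 ± 11.0 in HFD, 32.5 ± 14.4 in CD_DSS and 35.3 ± 11.5 in HFD_DSS, and the steps within the diets did not pass (limma adjusted p = 0.0528 on CD and 0.181 on the high-fat diet). Nfkbie, which encodes IkB-epsilon, rose by 0.29 (SE 0.09). Among 16 tested negative regulators other than A20, 4 rose and 0 fell: Zc3h12a by 0.73, Il18bp by 0.69, Tnip2 by 0.52 and N4bp1 by 0.23. Il18bp encodes a soluble protein that binds interleukin-18, and it stood at 3.81 ± 1.14 FPKM in CD, 4.21 ± 0.60 in HFD, 6.36 ± 2.59 in CD_DSS and 8.38 ± 2.34 in HFD_DSS, beside the lower Il18. The count of negative regulators that passed became 0 without HFD 2 or CD_DSS 3, 1 without CD 3, HFD_DSS 1 or HFD_DSS 3, and 2 without CD 1, CD 2, HFD 3 or CD_DSS 2. The 2 family genes became 1 without any 1 of 8 libraries, all but CD 1, HFD 3, CD_DSS 1 and HFD_DSS 2. Il18bp was also the 1 of 5 tested inflammasome and interleukin-1 family genes that passed, and it no longer did without CD 2, CD 3, HFD 2, HFD 3, CD_DSS 2, CD_DSS 3, HFD_DSS 1 or HFD_DSS 3.

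Of 19 tested other NF-kB target genes, 8 rose and 1 fell. Cxcl1 rose by 3.49 (SE 0.46, limma adjusted p = 0.00135), with 1.03 ± 0.55 FPKM in CD, 3.23 ± 4.25 in HFD, 18.5 ± 3.35 in CD_DSS and 46.3 ± 28.8 in HFD_DSS. Lcn2, which encodes the iron-sequestering protein lipocalin-2, rose by 4.26 (SE 1.04, limma adjusted p = 0.0162). Irf1 rose by 0.89, Gadd45b by 0.86, Ier3 by 0.78 and Cflar by 0.35. Gadd45b and Ier3 reached 1 FPKM in 0 untreated libraries, and in 6 and 5 DSS libraries, so they too had to be high with DSS to be tested. The gene that fell was Sod2, the mitochondrial superoxide dismutase (-0.24, SE 0.07, limma adjusted p = 0.0283), which was named after its value was seen. Within the diets 5 passed on CD (Cflar, Cxcl1, Gadd45b, Ier3 and Irf1, against the 2.01% of all tested genes that were higher) and 2 on the high-fat diet (Cxcl1 and Gadd45b, against 1.73%). The 5 on CD became 1 without CD_DSS 2 and 0 without CD 1, CD 2, CD 3 or CD_DSS 3. The 2 on the high-fat diet became 1 without HFD 3 and 0 without HFD 2, HFD_DSS 1 or HFD_DSS 3. Among 9 tested adhesion partners of leukocytes, 3 rose and 0 fell. Itgal and Itgb2, whose products form LFA-1, the receptor for Icam1, rose by 0.62 and 0.46, and Selplg, the ligand of P-selectin, by 0.41. Selplg reached 1 FPKM in 1 untreated and 6 DSS libraries. The adhesion count became 5 without CD_DSS 1 and 1 without CD 2, HFD 2, HFD 3, CD_DSS 3, HFD_DSS 1 or HFD_DSS 3.

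Markers of cell types differed in how far they moved with DSS. Their counts are again to be read against 8.72% of all tested genes higher and 11.2% lower. Counts without 1 library are to be read against the shares given above for those fits. Of 12 tested markers of Kupffer cells and macrophages, 6 rose with DSS in the average and 0 fell. That count became 11 without CD_DSS 1, against 24.7% of all tested genes in either direction. It became 2 without any 1 of the other libraries but CD 1, HFD 1 and HFD_DSS 2, against 12.1 to 15.6%. Within the diets 0 of the 12 passed on CD and 1, Marco, on the high-fat diet, against 2.01% and 1.73% of all tested genes higher. Without 1 library these within-diet counts ran from 0 to 9 and from 0 to 1. The shares of all tested genes in either direction then ran from 0.583 to 11.8% and from 0.0833 to 8.13%. The summed level of the 12 markers was 304 to 375 FPKM in CD, 297 to 479 in HFD, 340 to 622 in CD_DSS and 403 to 590 in HFD_DSS. Of 9 neutrophil markers, 4 were tested and 0 passed by limma (4 at an unadjusted p under 0.05, as were 3779 of all tested genes, and 0 by voom). Of these 4, 3 passed without HFD 1 or without CD_DSS 1 (against 21.7% and 24.7% of all tested genes), and 4 without HFD_DSS 2 (against 22%). In CD each of these 4 averaged 0.39 to 0.80 FPKM, under the minimum level for testing. They therefore needed libraries outside CD, where their mean levels were higher, to be tested. The summed level of all 9 was 1.89 to 3.73 FPKM in CD and 2.01 to 24.6 in HFD. With DSS it was 4.05 to 24.5 in CD_DSS and 5.95 to 59.3 in HFD_DSS. The defining marker Ly6g was listed at 0 in 8 libraries and at 0.18 FPKM or less in the others. Markers of T, NK and B cells summed to 0.76 to 2.45 FPKM over all groups, and none was tested. Of 8 sinusoidal endothelial markers 2 rose and 0 fell, a count that became 1 without CD 2, CD 3, HFD 2, HFD_DSS 2 or HFD_DSS 3. Of 6 hepatocyte markers, Hnf4a rose by 0.53 and Tat fell by 0.87, and of 7 stellate cell markers Dcn rose by 0.55. Of 3 tested biliary markers Sox9 rose by 0.91 and passed on each diet as well, and 2 passed in the average without HFD 1. In bulk tissue, fewer or more cells of a type and less or more RNA per cell cannot be told apart. The part of these cells in the levels of the members was not tested.

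In CD_DSS 1 the Kupffer and macrophage markers summed to 340 FPKM, within the CD range, and the neutrophil markers to 4.05, just above the highest CD library (3.73). In the same library Nfkbiz was at 2.06 and Icam1 at 3.60 FPKM, above the highest CD values of 1.12 and 2.08, while Relb and Tnfaip3 (0.60 and 0.50) were within the CD range. HFD_DSS 2 had lower sums than HFD 1 for both marker lists, with 403 against 479 FPKM for Kupffer cells and 5.95 against 24.6 for neutrophils. There Nfkbiz was higher, with 3.46 against 1.76 FPKM, and Icam1 was lower, with 3.93 against 5.61. These are single libraries picked after the data were seen, and the part of cell types in their values was not tested.

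**Figure D4:**
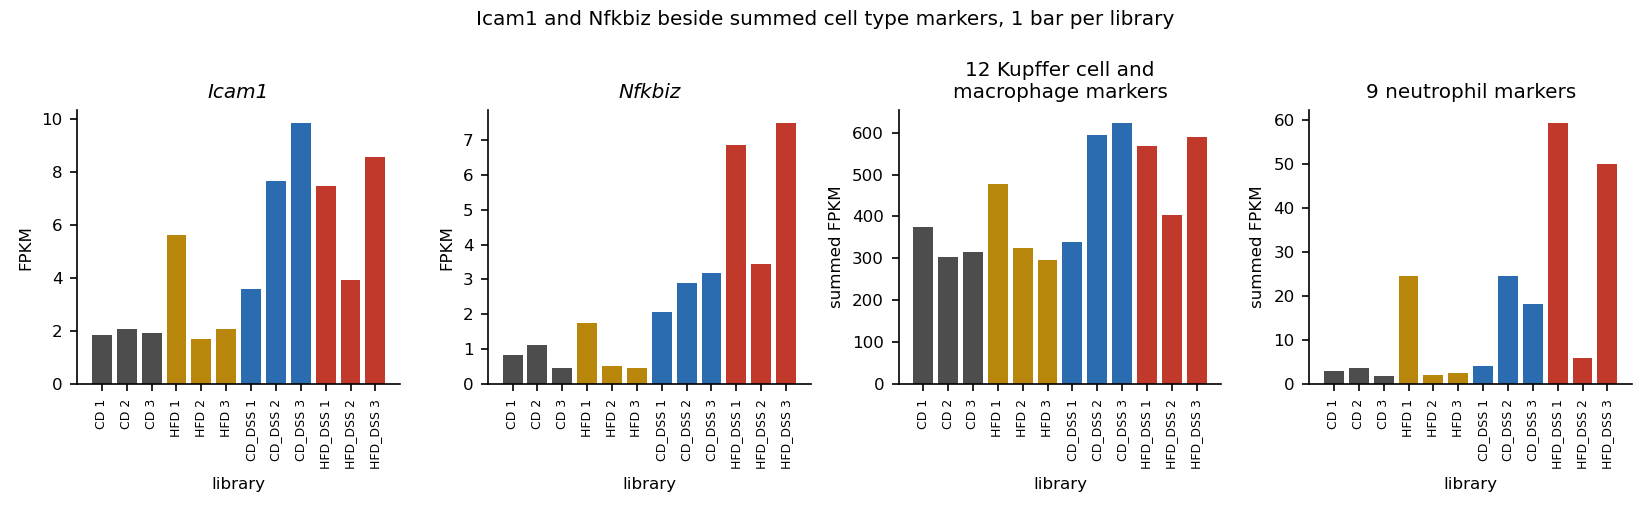
FPKM of Icam1 and Nfkbiz and summed FPKM of 12 Kupffer cell and macrophage markers and 9 neutrophil markers (y axes, linear from 0), 1 bar per library, coloured by group. HFD 1 is the highest untreated library in all 4 panels, and CD_DSS 1 and HFD_DSS 2 are the lowest of their groups in all 4 panels.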

How the data were processed

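Liver RNA was sequenced in 12 libraries, grouped and numbered from the sample labels. Per the labels' protocols, RNA extraction used the RNeasy system of Qiagen, and a SMARTer kit served to prepare mRNA-seq libraries. Per the submitters' processing notes, mm10 was the build. No aligner or counting tool is named in the sources used here. The authors deposited expression as FPKM, with a column for every library and 0 unused columns of per-sample values. Multiplied by exon length (GENCODE annotation of mm10), 97.0 to 97.3% of values under 500 fragments lay within 0.02 of a whole number, which gave the fragments and the depth of 23.4 to 29.4 M.

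The test was limma 3.58.1 in R 4.3.3 with a variance trend, two-sided, on log2(FPKM + 1). It covered 10806 genes that reached 1 FPKM in 3 or more libraries, in 1 model with 4 group means and 7 comparisons, and p-values were adjusted by the Benjamini-Hochberg method at 0.05. The test was checked on simulated data with independent noise for each value and changes added to HFD_DSS alone. Shifts shared by a whole library were not simulated, so the check does not cover them. Alternatives were a pseudocount of 0.1, no filter, a mean of at least 5 FPKM, TPM and median-of-ratios scaling, voom on recovered fragments, the 2 groups alone, the replicate number as a block, library weights, leaving out each library and, added after the data were seen, leaving out HFD 1, CD_DSS 1 and HFD_DSS 2.

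The members and gene lists were chosen with earlier results of these data known. By rule the text gives all 10 members, up to 6 genes that passed per list, those with the lowest p, the 3 genes most like a member (all 3 or the closest are named), and Saa1. Outside that rule is Sod2. Exact p-values were planned with adjustment over the members and are given unadjusted, which departs from the plan. An adjustment over the members alone would not cover that they were not chosen independently of the data. Protein sequences were not analysed here.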

Additional observations from a re-analysis of the deposited data

How the results depend on the processing

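No member that passed changed sign in any alternative, and 89 values that passed nowhere did. On the CD diet, where 0 members and 4.80% of all tested genes passed, 2 members passed with TPM scaling, 1 with the 2 groups alone, 4 with library weights, 5 without HFD 1, CD_DSS 1 and HFD_DSS 2, and 0 to 4 without 1 library. The shares of all tested genes were, in the same order, 3.70%, 2.04%, 24%, 17.8% and 0.583 to 11.8%. On the high-fat diet, where 2 members and 4.83% of all tested genes passed, 1 member passed with no filter, with a mean of at least 5 FPKM (which leaves 3 members), with TPM scaling and with voom, 0 with the 2 groups alone, 5 with library weights, 4 without those 3 libraries and 0 to 3 without 1 library. Shares of all tested genes were here, in order, 0.502%, 9.39%, 3.43%, 5.07%, 1.13%, 26.1%, 18.8% and 0.0833 to 8.13%. In the DSS average, where 5 members and 20% of all tested genes passed, 2 members passed with no filter (against 5.84%) and with a mean of at least 5 FPKM (27.5%), 3 with voom (20.3%) and 2 to 6 without 1 library (12.1 to 24.7%). Between the DSS groups 1 passed without the 3 libraries, against 0.731% of all tested genes. TPM scaling moved the share of higher genes among all that passed in the average from 43.7 to 58.2%, on the CD diet from 41.8 to 61.8% and on the high-fat diet from 35.8 to 66.9%, with no change in the direction of a member that passed. The number of all genes that passed was 519 on the CD diet (63 to 1271 without 1 library, 157 to 2592 under the others), 522 on the high-fat diet (9 to 879, 122 to 2820) and 2157 in the average (1312 to 2664, 1450 to 4259). With the replicate number as a block, 1 member passed on the high-fat diet and 3 in the average, and 290, 278 and 1836 of all genes passed. The samples share only a number: deviations from the group means correlated at -0.36 to 0.26 between same-numbered libraries (median 0.03, 18 pairs) and at -0.36 to 0.46 between the others (median -0.02, 36 pairs). The cause of these differences was not tested. Depth limits Il1b, Relb and Nfkbiz most, whose lowest libraries hold 24, 37 and 54 fragments, followed by Tnfaip3 with 62.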
